A study of Rattus norvegicus with 10 samples.

Results

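Genes of the interferon response and of antigen presentation were followed in the CA1 region of rat hippocampal slices. The members were the rows of the gene count table whose gene name was 1 of 35 names drawn up for this pathway. The table has 32545 genes and held 34 of the names on 35 rows, since the peptide transporter gene Tap2 stood on 2 rows and Xaf1 was on none. A filter on low counts kept 25 of these rows among the 15032 genes that were tested, and the other 10 rows, from 9 names, are described by their counts alone.

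The slices came from adult male Wistar rats, and each of 5 treatments had 2 libraries, each from pooled slices of separate animals. The SKF group was given only an agonist of the D1/D5 dopamine receptors. The Aβ group (SKF+Aβ) received SKF with oligomers of the amyloid peptide Aβ(1–42). The vehicle group (SKF+Aβ+CSP) received in addition empty carbon nanospheres made from glucose, named CSP. In the TTK21 group (SKF+Aβ+CSP-TTK21) the nanospheres carried TTK21, a compound that activates the acetyltransferases CBP and p300. CSP-TTK21 alone had neither SKF nor Aβ, so it differed from SKF in more than 1 agent. Slices were collected 1 h after treatment, without a transgene or a sorted cell type, so the RNA came from every cell of the dissected tissue. In such bulk RNA, fewer cells of a type and less RNA per cell cannot be told apart. Of 6 markers of CA1 pyramidal neurons 5 were found, with Fibcd1 at 0 counts in each library, and their sum was 1709 to 2539 CPM, a unit that scales each count to the same library total, while 6 markers of the dentate gyrus and CA3 gave 334 to 450. Total counts were between 6753742 and 8473407 per library, at which 3 counts are worth 0.354 to 0.444 CPM.

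Cells recognize foreign or misplaced RNA with the helicases RIG-I, MDA5 and LGP2, encoded by Ddx58, Ifih1 and Dhx58. These sensors switch on interferon genes, and secreted interferon acts through its receptors and the factors Stat2, Irf9 and Irf7 on the promoters of several effector genes that block viruses or damp the response. Interferon also raises the machinery that cuts proteins into peptides and loads them on class I molecules, while class II molecules present peptides mainly on microglia, macrophages and other immune cells. In the brain, endothelial cells, microglia and neurons can all respond.

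The promoters of the members were searched for the binding elements by which interferon is known to act, and 6 that hold one are shown because the results below turn on these genes. Of the 35 names, 26 had a promoter of 250 bases before to 50 bases after the start of transcription in the RefSeq collection for the build GRCr8. The core of the interferon-stimulated response element (ISRE) was searched as GAAANNGAAA on both strands, and the interferon-γ activated site (GAS) as TTCNNNGAA, which reads the same on both strands. In each stretch of 200 bases, written from 5′ to 3′ on the strand of the gene, capitals mark every match to the ISRE core, except for Irf1, where they mark the GAS.
Ifit3: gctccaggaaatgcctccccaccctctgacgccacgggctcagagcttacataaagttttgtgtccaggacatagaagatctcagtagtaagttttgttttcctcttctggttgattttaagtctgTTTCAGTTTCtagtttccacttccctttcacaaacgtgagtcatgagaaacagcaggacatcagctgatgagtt
Rsad2: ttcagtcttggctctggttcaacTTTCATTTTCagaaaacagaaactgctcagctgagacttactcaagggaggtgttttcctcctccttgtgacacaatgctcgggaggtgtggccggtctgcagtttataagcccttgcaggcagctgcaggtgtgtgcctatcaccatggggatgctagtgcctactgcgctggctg
Gbp2: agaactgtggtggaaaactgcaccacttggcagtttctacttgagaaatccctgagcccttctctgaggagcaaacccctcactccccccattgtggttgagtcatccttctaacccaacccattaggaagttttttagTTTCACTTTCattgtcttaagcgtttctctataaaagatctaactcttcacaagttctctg
Ifih1: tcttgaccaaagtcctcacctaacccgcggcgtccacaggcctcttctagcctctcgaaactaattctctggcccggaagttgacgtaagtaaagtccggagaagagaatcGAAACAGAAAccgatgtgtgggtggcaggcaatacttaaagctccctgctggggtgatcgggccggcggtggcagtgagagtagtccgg
Tapbp: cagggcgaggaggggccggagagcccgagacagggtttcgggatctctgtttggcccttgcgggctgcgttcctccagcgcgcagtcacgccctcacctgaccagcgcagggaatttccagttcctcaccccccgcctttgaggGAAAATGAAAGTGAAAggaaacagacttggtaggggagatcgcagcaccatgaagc
Irf1: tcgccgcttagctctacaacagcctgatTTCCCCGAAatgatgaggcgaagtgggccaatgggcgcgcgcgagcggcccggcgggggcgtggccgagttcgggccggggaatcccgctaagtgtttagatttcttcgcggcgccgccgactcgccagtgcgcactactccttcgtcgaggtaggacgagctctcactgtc

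These stretches lie at chr1:241527156-241527355 on the plus strand for Ifit3, at chr6:48788091-48788290 on the minus strand for Rsad2, and at chr2:234005557-234005756 on the plus strand for Gbp2. The others lie at chr3:67683939-67684138 on the minus strand for Ifih1, at chr20:4967848-4968047 on the minus strand for Tapbp, and at chr10:38417765-38417964 on the plus strand for Irf1. In Tapbp, 2 overlapping ISRE cores share their middle GAAA. The ISRE core was present in 15 of the 26 promoters, or 57.7%, and in 1312 of all 33469 promoters, or 3.92%. It was found in 7 of 8 effector promoters, in 6 of 7 class I promoters, in 1 of 2 sensor promoters, in 1 of 4 transcription factor promoters and in 0 of 5 class II promoters. The GAS was present in 6 of the 26, or 23.1%, against 8.87% of all promoters. Neither was found in 9 of the 26, which were those of Trim25, Stat2, Mx1, Psmb9, Cd74 and the 4 RT1 class II genes. A match describes these letters only, and the absence of a match says nothing on binding elsewhere. The promoters of Tap1 and Psmb9 overlap on opposite strands of chromosome 20.

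Seen by library, the tested members formed 2 patterns. Most effectors and the sensor Ifih1 were high in 3 libraries, SKF replicate 1 and both of the vehicle group, and low or intermediate in the other 7. Tapbp and Irf1, in contrast, were highest in both SKF libraries and lowest in both Aβ libraries. These genes also followed RT1-N2, a gene of the RT1 complex, the rat major histocompatibility complex. RT1-N2 had 0 counts in both SKF libraries, in vehicle replicate 1 and in CSP-TTK21 replicate 1, and 54 to 130 counts in the other 6 libraries. In the 4 libraries without RT1-N2 counts Irf1 was 104 to 141 normalized CPM, and in the other 6 it was 62.1 to 99.9. Tapbp, which lies on chromosome 20 as the RT1 complex does, was 14.9 to 23.5 and 9.69 to 12.3 in the same libraries. Stat2 was the third member without overlap, at 37.8 to 43.5 and 30.7 to 35.8. These 3 of 25 members were higher without RT1-N2 counts, while 2.06% of all tested genes were higher and 5.11% did not overlap in either direction. The SKF and Aβ groups differed in RT1-N2 in full, and the labels do not say whether the animals differed in origin. The heat map of the 25 tested members places the effector block of those 3 libraries apart from the rest.

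**Figure D1:**
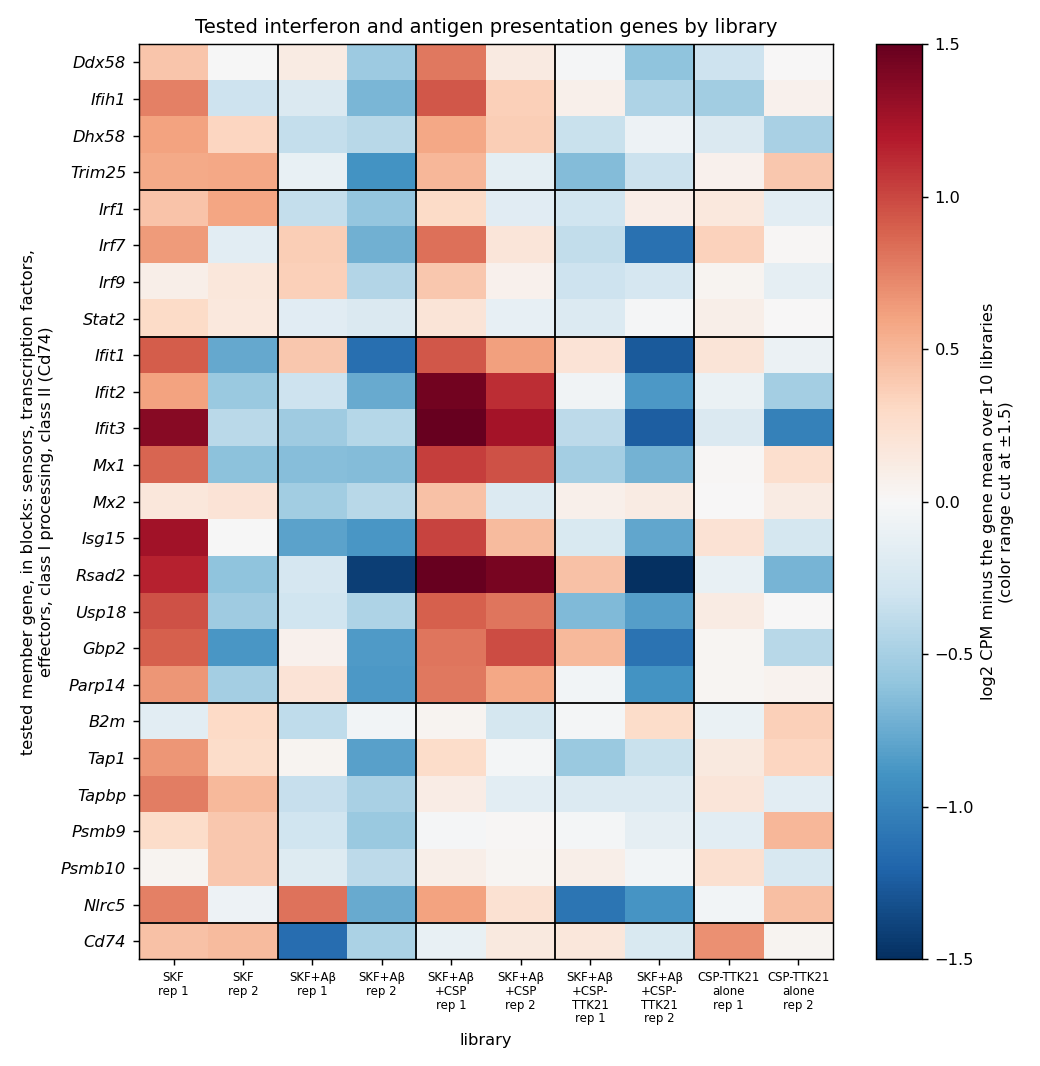
Log2 CPM (prior count of 2) of the 25 tested members, each row centered on its mean over the 10 libraries; rows are genes in blocks by role, columns are libraries, and red is above and blue below the gene's mean. The effector rows are red in SKF replicate 1 and in both vehicle (SKF+Aβ+CSP) libraries, where their mean centered values were 0.88, 1.06 and 0.80, except for Mx2 in vehicle replicate 2.

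Values below are CPM normalized with TMM factors and are given for replicates 1 and 2 in that order. Among the effectors, Ifit2 encodes a protein that binds viral RNA and restrains its translation. Ifit2 was 26.0 and 11.5 in SKF, 13.7 and 9.99 in the Aβ group, 47.0 and 36.9 in the vehicle group, 16.5 and 9.27 in the TTK21 group, and 15.9 and 11.9 in CSP-TTK21 alone. Both vehicle libraries were thus above all others, and the remaining groups overlapped. Ifit3, the partner of the other IFIT proteins, was 35.3 and 10.1 in SKF, 9.22 and 9.99 in the Aβ group, 41.7 and 32.5 in the vehicle group, 10.2 and 5.56 in the TTK21 group, and 11.5 and 6.55 in CSP-TTK21 alone. Here SKF replicate 1 lay among the vehicle libraries, and SKF replicate 2 lay among those of the 3 other groups.

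Rsad2 encodes viperin, which makes a chain-terminating nucleotide. It was 35.9 and 10.4 in SKF, 13.4 and 5.81 in the Aβ group, 48.8 and 43.2 in the vehicle group, 21.7 and 5.28 in the TTK21 group, and 14.8 and 9.76 in CSP-TTK21 alone. The vehicle libraries were again above every other library, while the replicates of SKF and of the TTK21 group were far apart. Mx1, a dynamin-like GTPase with antiviral activity, was 6.08 and 2.0 in SKF, 1.96 and 1.94 in the Aβ group, 6.85 and 6.45 in the vehicle group, 2.17 and 1.85 in the TTK21 group, and 3.24 and 3.88 in CSP-TTK21 alone. Usp18, the protease that removes the ubiquitin-like protein ISG15 and damps receptor signaling, was 8.02 and 2.67 in SKF, 3.21 and 2.83 in the Aβ group, 7.68 and 7.18 in the vehicle group, 2.43 and 2.14 in the TTK21 group, and 4.36 and 4.01 in CSP-TTK21 alone. For Usp18 the TTK21 libraries were the lowest of all.

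Isg15 itself, at 5.53 and 2.14 in SKF, was 1.12 and 1.04 in the Aβ group, 4.61 and 3.08 in the vehicle group, 1.79 and 1.14 in the TTK21 group, and 2.53 and 1.74 in CSP-TTK21 alone. Both SKF libraries were above both Aβ libraries. Gbp2, a guanylate-binding protein gene that responds chiefly to interferon-γ, was 115 and 33.5 in SKF, 64.5 and 34.0 in the Aβ group, 108 and 122 in the vehicle group, 86.2 and 28.4 in the TTK21 group, and 62.9 and 46.0 in CSP-TTK21 alone. Its highest libraries were both of the vehicle group and SKF replicate 1. Parp14 and Ifit1 ranged from 22.2 to 72.2 and from 2.28 to 11.5 normalized CPM, with the same 3 libraries highest. Mx2 was the exception among the effectors, at 22.8 and 23.5 in SKF, 14.1 and 15.2 in the Aβ group, 27.5 and 17.6 in the vehicle group, 21.3 and 22.1 in the TTK21 group, and 20.4 and 22.1 in CSP-TTK21 alone. Only its Aβ libraries stood apart, below the other 8.

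**Figure D2:**
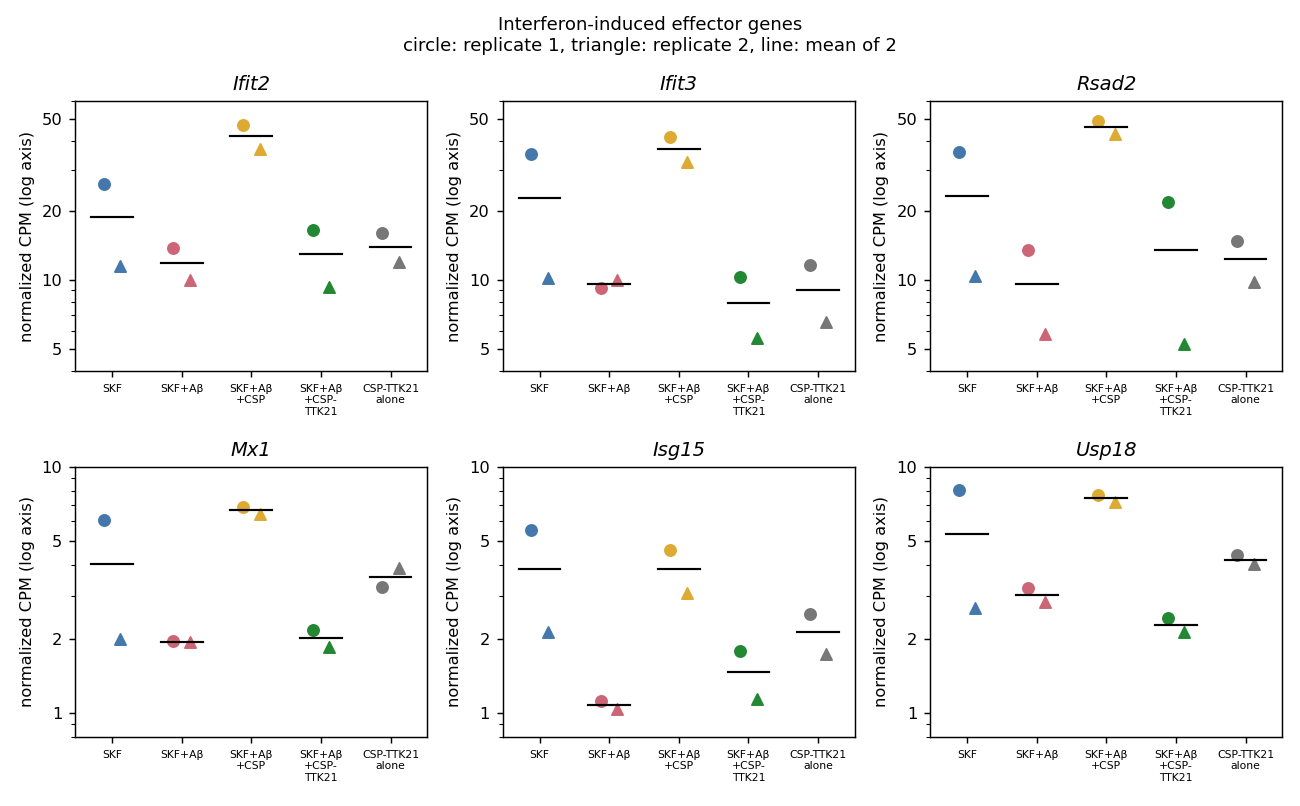
Normalized CPM on a log axis of 6 effector genes in the 5 groups; each point is 1 library (circle, replicate 1; triangle, replicate 2) and the line is the mean of 2. The 2 SKF points are far apart in every panel, with Ifit3 at 35.3 and 10.1, while the 2 vehicle (SKF+Aβ+CSP) points lie close together near the top.

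The SKF replicates differed widely in these genes. Of the 10 tested effectors, 9 were higher in SKF replicate 1, by a median of 1.49 on the log2 scale, while 48.8% of all tested genes were higher there with a median difference of -0.01. The other groups had the same direction at smaller sizes, with 8, 9, 9 and 7 of the 10 effectors higher in replicate 1 of the Aβ group, the vehicle group, the TTK21 group and CSP-TTK21 alone. Their medians were 0.31, 0.27, 0.83 and 0.35, while 48.2% to 50.7% of all tested genes were higher in replicate 1. Every comparison with SKF therefore rests on a reference whose effector values were spread over most of the range seen in the series.

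The first comparison asked how Aβ altered these genes under SKF. Irf1 and Tapbp fell in the Aβ group, whose 2 libraries both had RT1-N2 counts while both SKF libraries had 0. Irf1 encodes a transcription factor that drives class I genes, and Tapbp encodes tapasin, which bridges the peptide transporter to empty class I molecules. Irf1 was 126 and 141 in SKF and 72.8 and 62.1 in the Aβ group, a 1.98-fold lower level (log2 fold change -0.98 ± 0.19 SE, n = 2 and 2, edgeR adjusted p = 0.0355). Tapbp was 23.5 and 19.4 in SKF and 10.8 and 9.69 in the Aβ group, a 2.09-fold lower level (log2 fold change -1.07 ± 0.21 SE, edgeR adjusted p = 0.0355). Trim25, the ubiquitin ligase that helps to activate RIG-I, followed at 12.9 and 12.9 against 7.96 and 4.47, but missed the threshold (-1.05 ± 0.31 SE, edgeR adjusted p = 0.0798). For all 3 genes both Aβ libraries were below both SKF libraries. They had the smallest p of the members here, so that separation was largely set by the choice.

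These 2 members made up the calls among the 25, and 2.08% of all tested genes were called in this comparison. DESeq2 called 3 members, Irf1 and Tapbp among them, with 5.44% of all tested genes, and limma called these 2 with 2.33%. Neither reached the log2 fold change of 1.5 that the study set as its limit. All 25 tested members had a lower mean level in the Aβ group, with a median log2 fold change of -0.76 against -0.00 over all tested genes. At an unadjusted p under 0.05, 13 of the 25 were lower, which 10.9% of all tested genes were. The median was -0.84 for the 4 sensors, -0.39 for the 4 transcription factors, -0.74 for the 10 effectors and -0.67 for the 6 class I genes. Without SKF replicate 1 the member median was -0.17 and 7 of 26 tested members were lower at an unadjusted p under 0.05, against 8.80% of all tested genes, so much of the difference rested on that library. The same count was also 7 without Aβ replicate 2, while without SKF replicate 2 it was 17, beside 10.7% and 9.55% of all tested genes. The calls of Irf1 and Tapbp were lost without SKF replicate 1 and without either Aβ library, at adjusted p of 0.0770 to 0.147, and Irf1 was also not called without SKF replicate 2, at 0.0612. Tapbp alone was lost without either vehicle library, at 0.0598 and 0.0604. A fit of only the 4 libraries compared also called neither, at 0.0544 for Irf1 and 0.0880 for Tapbp. With each library left out in turn, the log2 fold change was -1.12 to -0.89 for Irf1 and -1.20 to -0.94 for Tapbp. When the presence or absence of RT1-N2 counts was added to the fit as a term, which the vehicle and CSP-TTK21 groups with 1 library of each kind allow, neither was called. The log2 fold change was then -0.60 ± 0.23 SE for Irf1 and -0.76 ± 0.28 SE for Tapbp, each at an edgeR adjusted p of 0.923, the member median was -0.60, and 2 of the 25 members were lower at an unadjusted p under 0.05, beside 2.26% of all tested genes. That fit called 0 of all tested genes in this comparison, so for these calls an effect of Aβ and a difference between the animals cannot be told apart. With 2 libraries against 2, an exact permutation test cannot go below 0.333, so these calls lean on the spread shared across all 5 groups.

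**Figure D3:**
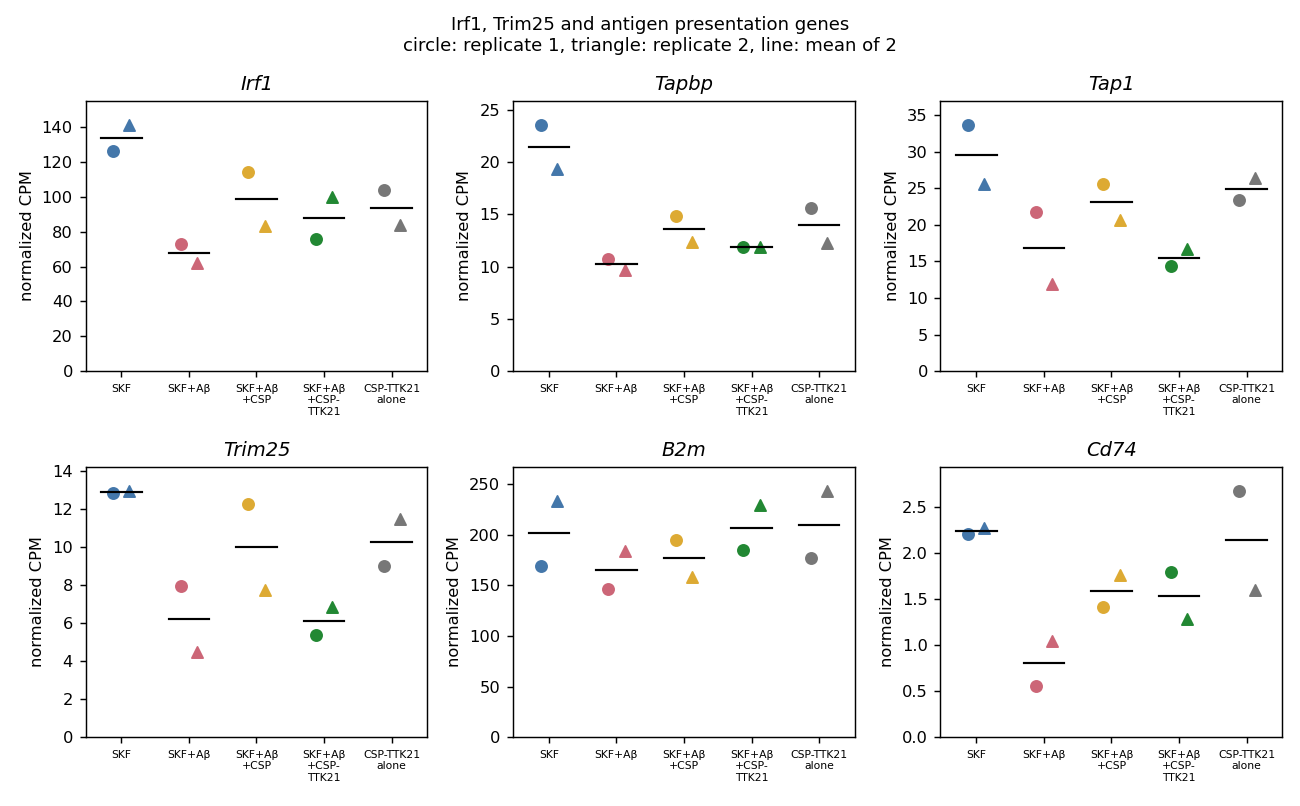
Normalized CPM on a linear axis from 0 of Irf1, Tapbp, Tap1, Trim25, B2m and Cd74 in the 5 groups; each point is 1 library (circle, replicate 1; triangle, replicate 2) and the line is the mean of 2. Irf1 and Tapbp are highest in both SKF libraries and lowest in both Aβ libraries, at 62.1 and 9.69 in the lower of these.

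Irf1 and Tapbp were also below both SKF libraries in every group that received nanospheres. Irf1 was 114 and 83.1 in the vehicle group, 75.7 and 99.9 in the TTK21 group, and 104 and 83.5 in CSP-TTK21 alone. Tapbp was 14.9 and 12.3, 11.9 and 11.8, and 15.6 and 12.3 in the same groups. None of these 6 differences from SKF passed the test, and all of them share the SKF libraries with the first comparison. For the vehicle group the log2 fold changes were -0.43 ± 0.18 SE for Irf1 (edgeR adjusted p = 0.220) and -0.65 ± 0.20 SE for Tapbp (edgeR adjusted p = 0.120). For CSP-TTK21 alone they were -0.51 ± 0.18 SE and -0.62 ± 0.20 SE, each at an edgeR adjusted p of 0.633.

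Against SKF, the members in the vehicle group showed no common direction. In this comparison 0 of the 25 were called by edgeR, while 0.02% of all tested genes were. DESeq2 called 1, with its share of all genes not given here, and limma called 0. With p unadjusted and under 0.05, 3 of the 25 differed in either direction, which is 12% of them, while 19.3% of all tested genes did, and the median log2 fold change was 0.04 against 0.00. Ifit2 had the smallest p, at 1.17 ± 0.33 SE (edgeR adjusted p = 0.101), and was the gene that DESeq2 called. Of the 10 effectors, 9 had a higher mean in the vehicle group, with a median of 0.57. So did 6 of 7 tested endothelial markers, with a median of 0.23, and all 6 tested meningeal markers, with a median of 0.75. Of 13 microglial markers 12 had a lower mean, with a median of -0.59. The part of these cells was not tested. Without SKF replicate 1 the median of the members was 0.52, and 9 were higher and 1 lower at an unadjusted p under 0.05, as were 7.23% and 7.77% of all tested genes. With each library left out in turn, the median of the members lay between -0.12 and 0.52.

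In the TTK21 group against SKF, 24 of the 25 had a lower mean, with a median of -0.61 against -0.01 over all genes. edgeR called 0 of them, with 0.00665% of all tested genes called. DESeq2 called 2, with its share of all genes not given here, and limma called 0. By the unadjusted p under 0.05, 10 were lower, while 8.78% of all tested genes were. The smallest p values belonged to Tapbp at -0.85 ± 0.20 SE (edgeR adjusted p = 0.0994), Tap1 at -0.93 ± 0.25 SE (edgeR adjusted p = 0.109) and Trim25 at -1.08 ± 0.31 SE (edgeR adjusted p = 0.123). Tap1, which encodes a subunit of the peptide transporter, was 33.6 and 25.6 in SKF and 14.3 and 16.7 in the TTK21 group. Trim25 was 5.37 and 6.84 in the latter group, below both SKF libraries. Without SKF replicate 1, 4 members were lower at an unadjusted p under 0.05, as were 4.48% of all tested genes. Without SKF replicate 2, 17 of 28 tested members were, against 9.74% of all tested genes, and edgeR called 3 members and 2.14% of all tested genes.

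In CSP-TTK21 alone against SKF, 24 of the 25 had a lower mean, with a median of -0.25 against 0.00, edgeR called 0 of the members as of all genes (0%), and DESeq2 and limma called 0. At an unadjusted p under 0.05, 4 were lower, while 3.63% of all tested genes were. They numbered 1 without SKF replicate 1, 10 without SKF replicate 2 and 0 without CSP-TTK21 replicate 2, beside 2.56%, 4.94% and 0.878% of all tested genes. Ifit3 had a log2 fold change of -1.33 ± 0.45 SE (edgeR adjusted p = 0.633), but its CSP-TTK21 values of 11.5 and 6.55 overlapped SKF replicate 2 at 10.1, and the change was -0.18 without SKF replicate 1. Here all 6 oligodendrocyte markers had a lower mean, 2 at an unadjusted p under 0.05, with a median of -0.34, and 5 of 7 tested endothelial markers did, 1 at that threshold, with a median of -0.33.

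The next comparison asked what the empty nanospheres did on top of SKF and Aβ, and it shares the Aβ libraries with the first. All 25 tested members were on average higher in the vehicle group than in the Aβ group, with a median log2 fold change of 0.69 against -0.01 over all tested genes. edgeR called 0 of them and 0% of all genes. DESeq2 called 1, Ifit2, with its share of all genes not given here, and limma called 0. An edgeR fit restricted to the 4 libraries of this comparison called 1, Ifit3 (adjusted p = 0.0355), which was also its only call among all the genes it tested (0.00696%). Taking an unadjusted p under 0.05, 14 were higher, which 1.63% of all tested genes were. These comprised 9 of the 10 effectors and all 4 sensors, along with Irf1. The effectors had a median of 1.53 and the sensors of 0.81, while the 6 class I genes had a median of 0.39 with 0 at that threshold.

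Ifit2 was 3.54-fold higher in the vehicle group (log2 fold change 1.82 ± 0.34 SE), Ifit3 3.87-fold higher (1.95 ± 0.45 SE) and Rsad2 4.76-fold higher (2.25 ± 0.57 SE). The edgeR adjusted p was 1.00 for each of them over 15032 genes in the fit of all libraries, so none passed the test there, although for all 3 both vehicle libraries lay above both Aβ libraries. These 3 were named for the smallest p in this comparison, so that separation was largely set by the choice. Ifih1, the MDA5 gene, was 53.4 and 35.8 in the vehicle group and 23.9 and 17.1 in the Aβ group. Dhx58 was 5.32 and 4.54 against 2.65 and 2.53, and Ddx58 was 17.0 and 10.7 against 10.6 and 6.56. In these 3 sensor genes the groups did not overlap, by a small margin for Ddx58, whereas Trim25 overlapped at 12.3 and 7.77 against 7.96 and 4.47. Leaving out 1 library at a time, between 6 (without vehicle replicate 1) and 19 (without Aβ replicate 1) members were higher at an unadjusted p under 0.05, with 8 without Aβ replicate 2, beside 0.967%, 3.25% and 1.79% of all tested genes. With RT1-N2 as a term the number was 7, beside 0.858% of all, and the median log2 fold change was 0.72.

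The comparison of the nanospheres that carried TTK21 with the empty ones asked what the compound itself added. Of the 25, 24 had a lower mean in the TTK21 group than in the vehicle group, with a median of -0.81 against 0.01 over all tested genes. edgeR called 0 of the members and 0% of all genes. DESeq2 called 1, Ifit2, with its share of all genes not given here, and limma called 0. An edgeR fit of only the 4 libraries compared called 2, Ifit2 (adjusted p = 0.0179) and Ifit3 (adjusted p = 0.0125), among 0.346% of all the genes it tested. At an unadjusted p under 0.05, 15 were lower, while 5.61% of all tested genes were. They included 7 of the 10 effectors, with a median of -1.54, and all 4 sensors, with a median of -0.77. This comparison and the previous one share both vehicle libraries, so the opposite signs are not independent of each other.

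Ifit2 was 3.25-fold lower with CSP-TTK21 than with CSP (log2 fold change -1.70 ± 0.34 SE, edgeR adjusted p = 0.336), and Ifit3 was 4.67-fold lower (-2.22 ± 0.45 SE, edgeR adjusted p = 0.336). Usp18 was 3.23-fold lower (-1.69 ± 0.44 SE, edgeR adjusted p = 0.510). For these 3 genes both TTK21 libraries were below both vehicle libraries. They had the smallest p of the members in this comparison, so that separation was largely set by the choice. Without vehicle replicate 1 or without TTK21 replicate 2, 8 members were lower at an unadjusted p under 0.05, as were 4.04% of all tested genes. Without either SKF library edgeR called 2 members, Ifit2 and Ifit3, and 0.0321% to 0.0384% of all tested genes. With RT1-N2 as a term 7 were lower at that threshold, beside 3.35% of all, and the median was -0.69. The class I genes differed less, with a median of -0.15. Nlrc5, the transactivator of class I genes, was at 2.30 and 2.71 in the TTK21 group, 8.03 and 6.16 in the vehicle group, 9.36 and 2.98 in the Aβ group, 8.99 and 4.94 in SKF, and 5.06 and 7.22 in CSP-TTK21 alone. Its TTK21 libraries were the lowest of the 10.

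**Figure D4:**
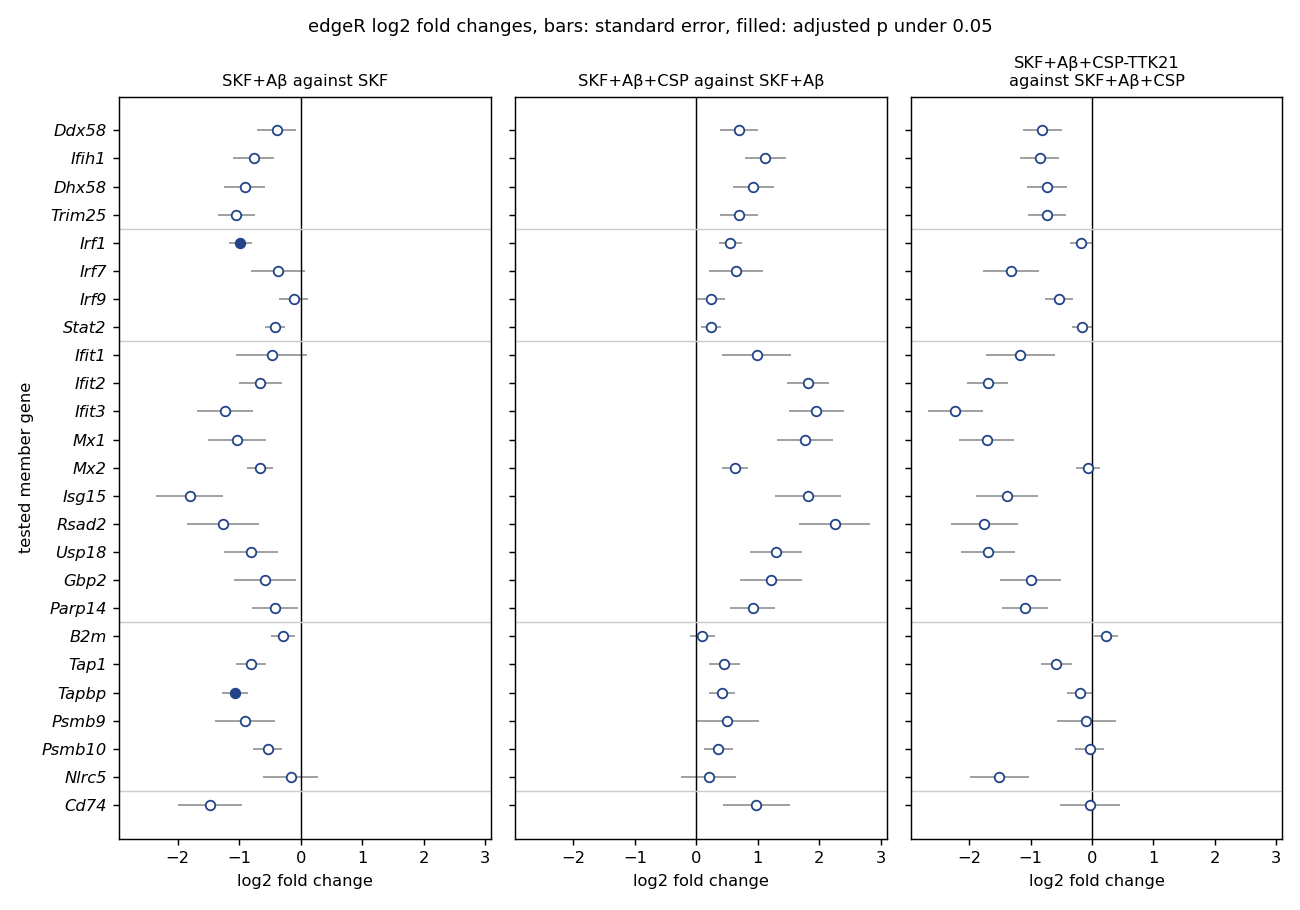
edgeR log2 fold changes of the 25 tested members (points) with standard errors (bars) in 3 comparisons, in blocks by role from sensors at the top to Cd74 at the bottom; filled points have an adjusted p under 0.05. All 25 points are below 0 for the Aβ group (SKF+Aβ) against SKF, where Irf1 (-0.98) and Tapbp (-1.07) are filled, all 25 are above 0 for the vehicle group against the Aβ group, and 24 are below 0 for the TTK21 group against the vehicle group.

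Set against the Aβ group without nanospheres, the TTK21 group showed no common direction in the members. Of the 25, 15 had a higher mean and 10 a lower one, with a median of 0.13 against 0.01. edgeR called 0 of them and 0% of all genes, and DESeq2 and limma called 0. On an unadjusted p under 0.05, 2 differed in either direction, or 8%, while 6.59% of all tested genes did. Those were Mx2 at 0.57 ± 0.21 SE and Nlrc5 at -1.31 ± 0.50 SE, each at an edgeR adjusted p of 0.746, and the change of Nlrc5 ranged from -1.90 to -0.25 when 1 library was left out. With each library left out in turn, the median of the members lay between -0.17 and 0.38. Irf1 followed at 0.38 ± 0.19 SE (edgeR adjusted p = 0.746). Ifit2, Ifit3 and Rsad2 overlapped between these groups. The standard errors were 0.36 for Ifit2 and 0.61 for Rsad2 on the log2 scale. With 2 libraries a group even a change several times its standard error went uncalled, such as Ifit2 against the vehicle group (-1.70 ± 0.34 SE). The overlap therefore does not show that the TTK21 and Aβ groups were equal.

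Among the class I genes, B2m encodes the light chain of every class I molecule. It was 170 and 233 in SKF, 146 and 184 in the Aβ group, 195 and 159 in the vehicle group, 185 and 229 in the TTK21 group, and 177 and 243 in CSP-TTK21 alone, and all groups overlapped SKF. The immunoproteasome genes Psmb10 and Psmb9 ranged from 7.90 to 13.9 and from 0.894 to 2.14 normalized CPM, with both Aβ libraries below both SKF libraries in each gene. Psmb8, a further catalytic subunit, had only 2 to 8 counts per library and was not tested. The 2 rows of Tap2, which pairs with Tap1, had 1 to 7 and 2 to 11 counts, and reads can be divided between such copies.

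Class II transcripts were close to the limit of detection. Cd74, the invariant chain, had 4 to 19 counts per library and was the 1 class II member that passed the filter. It was at 2.21 and 2.27 in SKF, 0.559 and 1.04 in the Aβ group, 1.42 and 1.76 in the vehicle group, 1.79 and 1.28 in the TTK21 group, and 2.67 and 1.60 in CSP-TTK21 alone. Its Aβ libraries were the lowest, at 4 and 7 counts. Ciita, the master regulator of class II genes, had 4 to 9 counts, while RT1-Da, RT1-Db1, RT1-Ba and RT1-Bb had at most 6, 2, 10 and 3 counts and were at 0 in 1 or more libraries each. Of the effectors below the filter, Bst2, which encodes the virion tether tetherin, had 1 to 16 counts. Oas1a, which makes the second messenger of RNase L, had 13 and 3 counts in SKF, 4 and 4 in the Aβ group, 7 and 8 in the vehicle group, 0 and 0 in the TTK21 group, and 2 and 4 in CSP-TTK21 alone. A count of 0 allows up to 3 counts in each of those libraries, a limit of counting error alone, so no difference from the TTK21 group is given.

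Of the remaining transcription factors, Stat2 ranged from 30.7 to 43.5, Irf9 from 14.6 to 26.5 and Irf7 from 1.85 to 7.92 normalized CPM. Irf7, which is itself induced by interferon, was 6.91 and 3.87 in SKF, 5.73 and 2.53 in the Aβ group, 7.92 and 4.98 in the vehicle group, 3.32 and 1.85 in the TTK21 group, and 5.63 and 4.41 in CSP-TTK21 alone. It was lower in both TTK21 libraries than in either vehicle library.

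The upstream part of the pathway was looked at in 26 ligand, receptor and signaling genes outside the members, of which 23 were tested. Their medians lay between -0.19 and 0.08 on the log2 scale over the 7 comparisons. In the Aβ group against SKF 1 of the 23 passed, beside 2.08% of all tested genes, a count too small to read as a result on this list. The gene was Socs3, a feedback inhibitor of cytokine receptors, which fell by 0.86 on the log2 scale (SE 0.20, edgeR adjusted p = 0.0454). Socs3 was 46.1 to 57.9 normalized CPM in the 4 libraries without RT1-N2 counts and 29.3 to 39.5 in the other 6. Its call was lost without either library of SKF, of the Aβ group or of the vehicle group, at edgeR adjusted p of 0.0677 to 0.196. Ifnb1, the interferon-β gene, had 7 and 0 counts in SKF, 1 and 1 in the Aβ group, 7 and 2 in the vehicle group, 0 and 5 in the TTK21 group, and 0 and 5 in CSP-TTK21 alone. Ifng had 1 count in the 10 libraries together, and both ligands were looked up after the other values were seen.

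A further 40 genes known to be induced by interferon had 32 tested, and edgeR called 0 of them in all 7 comparisons. In the vehicle group against the Aβ group, 25 of the 32 had a higher mean with a median of 0.58, and 11 were higher at an unadjusted p under 0.05, beside 1.63% of all tested genes. In the TTK21 group against the vehicle group, 28 had a lower mean with a median of -0.74, and 10 were lower at that threshold, beside 5.61% of all tested genes. In the Aβ group against SKF, 26 had a lower mean with a median of -0.28, and 4 were lower at that threshold, a share close to the 10.9% of all tested genes. The 13 tested genes of peptide loading and processing, such as calreticulin and the proteasome activators, had medians between -0.17 and 0.20.

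Of 34 other genes of the RT1 complex, 24 were tested and 2 passed in the Aβ group against SKF, where 2.08% of all tested genes did. The list as a whole had no common direction there, with 12 higher and 12 lower, 4 and 3 of them at an unadjusted p under 0.05, and a median log2 fold change of 0.01. Of all tested genes 10.9% were lower at that threshold, a share close to that of the list. RT1-CE16 fell by 2.34 on the log2 scale (SE 0.43, edgeR adjusted p = 0.0355), from 10.5 and 6.41 to 1.82 and 1.49 normalized CPM. RT1-CE7 fell by 1.38 (SE 0.33, edgeR adjusted p = 0.0497), from 22.1 and 16.2 to 8.66 and 5.96. These class I heavy chain genes are near copies of each other, so reads can be exchanged between them. RT1-CE16 was 6.41 to 10.5 normalized CPM without RT1-N2 counts and 1.49 to 4.68 with them, and RT1-CE7 was 12.7 to 22.1 and 5.70 to 11.1. Without SKF replicate 1 or either Aβ library both calls were lost, at edgeR adjusted p of 0.0817 to 0.177. RT1-CE7 was also not called without SKF replicate 2, either vehicle library or TTK21 replicate 2, at 0.0511 to 0.0691. With RT1-N2 as a term Socs3, RT1-CE16 and RT1-CE7 were not called, each at an edgeR adjusted p of 0.923, and their log2 fold changes were -0.42, -1.56 and -0.59. In the fit of only the 4 libraries compared none of the 3 was called either, at edgeR adjusted p of 0.0670 to 0.0755.

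Markers of other cell types were measured in the same libraries. Of 9 endothelial markers 8 were found, and their sum was 222 and 114 normalized CPM in SKF, 158 and 120 in the Aβ group, 224 and 167 in the vehicle group, 94.0 and 90.7 in the TTK21 group, and 139 and 114 in CSP-TTK21 alone. The 3 libraries with the highest effector values also had the highest endothelial sums, by a small margin for vehicle replicate 2. Of the single markers, Cdh5 alone had these 3 libraries highest. Flt1, Kdr, Tie1 and Esam were higher in Aβ replicate 1 than in vehicle replicate 2, at 63.0 and 60.7 for Flt1. Slco1a4 was lowest in SKF replicate 1, at 1.80. Cldn5, a defining marker, had 0 counts in every library, whereas Flt1 and Cdh5 had at least 240 and 110. In the TTK21 group against the vehicle group all 7 tested endothelial markers had a lower mean, with a median of -1.04. At an unadjusted p under 0.05, 6 of them were lower, beside 5.61% of all tested genes. In the vehicle group against the Aβ group all 7 markers had a higher mean, 1 at that threshold beside 1.63% of all tested genes. Their median was 0.38, which is less than the 1.53 of the effectors. The endothelial markers and the effectors parted in the TTK21 group against the Aβ group, where all 7 markers had a lower mean, 2 at that threshold, with a median of -0.59, while 6 of the 10 effectors had a higher mean with a median of 0.09. In either direction 6.59% of all tested genes were at that threshold there. Against SKF, 5 of the 7 markers had a lower mean in the TTK21 group, 4 at that threshold beside 8.78% of all tested genes. The markers had a median of -0.80 beside the -0.61 of the members. The part of these cells in the effector values was not tested.

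Microglial markers did not follow the effectors across the libraries. The sum of 13 markers was 190 and 310 in SKF, 192 and 233 in the Aβ group, 210 and 186 in the vehicle group, 228 and 313 in the TTK21 group, and 240 and 295 in CSP-TTK21 alone. The 3 libraries with the highest effector values were among the 4 lowest in this sum. In the Aβ group against SKF, however, 11 of the 13 had a lower mean, with a median of -0.27, the direction of the members. At an unadjusted p under 0.05, 3 of these markers were lower, beside 10.9% of all tested genes. In the vehicle group against the Aβ group 11 had a lower mean, 0 at that threshold, with a median of -0.11, and in the TTK21 group against the vehicle group 12 had a higher mean, 2 at that threshold, with a median of 0.59.

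Oligodendrocyte markers moved with the members in the first comparison. All 6 had a lower mean in the Aβ group than in SKF. Of them 4 were lower at an unadjusted p under 0.05, beside 10.9% of all tested genes. The 6 markers had a median of -0.65 beside the -0.76 of the members. Their sum was 16211 and 23950 normalized CPM in SKF and 15528 and 10918 in the Aβ group, and both Aβ libraries were below both SKF libraries. In the vehicle group against the Aβ group all 6 had a higher mean, 0 at that threshold, with a median of 0.39. In the TTK21 group against the vehicle group all 6 again had a higher mean, 0 at that threshold, with a median of 0.14, while 24 of the 25 members had a lower one. The 7 astrocyte markers had medians of -0.09, -0.06 and 0.42 in these 3 comparisons, with 1, 0 and 2 of them at that threshold. The part of microglia, oligodendrocytes and astrocytes in the member values was not tested.

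Lymphoid and dendritic markers together gave 9.49 to 17.0 and border macrophage markers 5.08 to 15.5 normalized CPM, with 5 to 9 of 12 and 0 to 1 of 6 markers at 0 counts. Blood markers, of which 6 of 8 were found, gave 62.9 to 92.0. Meningeal markers gave 39.4 to 87.9, highest in vehicle replicate 2. In the TTK21 group against the vehicle group 4 of the 6 tested meningeal markers had a lower mean, and the median was -0.92. All 4 were at an unadjusted p under 0.05, beside 5.61% of all tested genes. In the vehicle group against the Aβ group 4 of the 6 markers had a higher mean, with a median of 0.39. At that threshold 1 of them was higher, beside 1.63% of all tested genes. Choroid plexus markers gave 3.56 to 8.29. The part of these cells in the member values was likewise not tested.

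**Figure D5:**
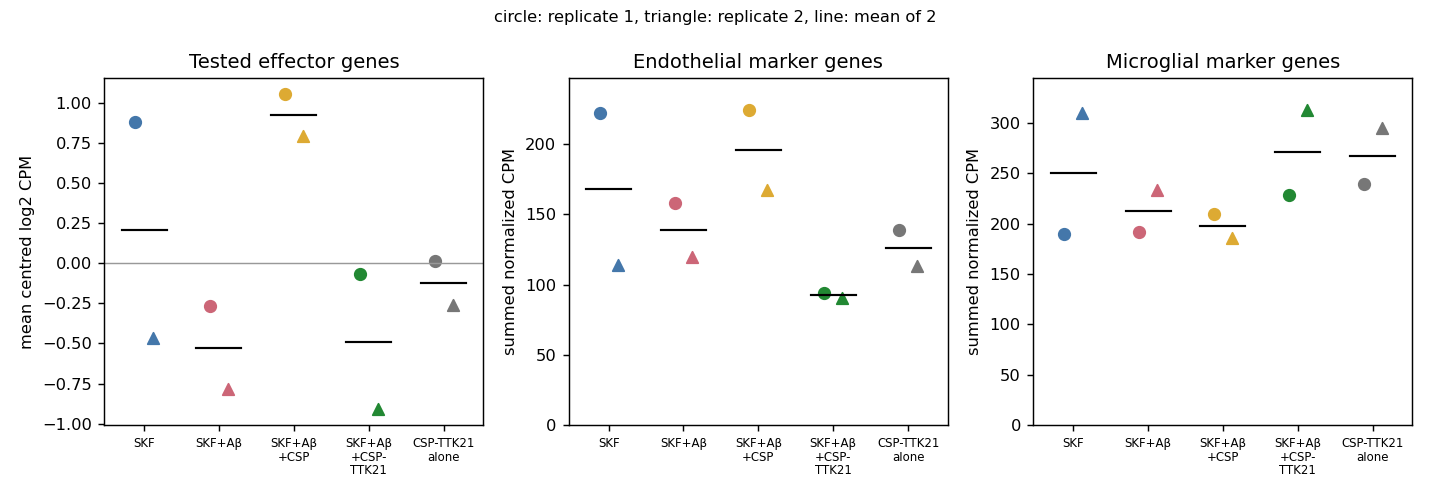
Mean centered log2 CPM of the 10 tested effectors (left), summed normalized CPM of the endothelial markers (middle) and of the microglial markers (right) in the 5 groups; each point is 1 library (circle, replicate 1; triangle, replicate 2) and the line is the mean of 2. SKF replicate 1 and both vehicle (SKF+Aβ+CSP) libraries are highest in the left and middle panels, but not in the right one. Their endothelial sums are 222, 224 and 167, the last just above the 158 of Aβ replicate 1.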

How the data were processed

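The deposited values are raw counts of reads for each Ensembl rat gene in 10 libraries, and were not normalized by the authors. Per the paper's methods, RNA depleted of ribosomal RNA was made into stranded paired-end libraries, and reads were trimmed, stripped of duplicates and aligned with TopHat2, with both the rat build Rnor_6.0 and the mouse build mm10 named. The methods then name Cufflinks and Cuffmerge for transcript levels and a merged annotation, but do not tie them to the deposited counts. The submitters' notes also name STAR, RSEM, HISAT2 and Salmon, and a human genome build. Which of these made the counts, and with which strand setting, is not given in the sources used here, so reads of overlapping genes and near copies may be divided or mixed. An untreated group was not analysed here.

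The tests were run in edgeR 4.0.16 under R 4.3.3, with filterByExpr by group, TMM factors and 1 quasi-likelihood fit of all 10 libraries that gave each group its own mean and held no covariate. The script was tested on simulated data first. The 7 comparisons used Benjamini-Hochberg adjusted p-values over 15032 genes, with a call at under 0.05. The common biological coefficient of variation was 0.136. Replicates differed by 4.98 to 12.7 times the sampling noise (chi-square per degree of freedom), so none was a copy. Alternatives used DESeq2 1.42.0, limma 3.58.1 on log2 CPM, RLE factors, other filters, only the 4 libraries compared, the replicate number as a block, other call rules, each library left out and, chosen after seeing the data, the presence of RT1-N2 counts as a term.

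The members and gene lists were chosen with earlier results of these data known. A fold change with its error is given for members with a call and for the 3 with the smallest unadjusted p in each comparison. Other pathway genes are named where called. Promoters are from RefSeq, GRCr8, and their coordinates apply to that build only.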

Additional observations from a re-analysis of the deposited data

How the results depend on the processing

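The 21 member fold changes tracked, 3 in each comparison, and those of Socs3, RT1-CE16 and RT1-CE7 kept their direction under the alternatives run (428 of 428 values). They were chosen by small p in these same data, and the alternatives refit mostly the same libraries. A kept direction was therefore close to fixed in advance. The number of members called was 2 in the Aβ group against SKF and 0 in the other 6 comparisons. With no filter on low counts it was 11 in the Aβ group, 4 in the vehicle group, 10 in the TTK21 group and 2 in CSP-TTK21 alone against SKF, 7 in the vehicle group against the Aβ group and 12 in the TTK21 group against the vehicle group, and the cause was not tested. Calls over all genes rose as well under that setting, in the same order from 312 to 1311, from 3 to 754, from 1 to 902, from 0 to 157, from 0 to 66 and from 0 to 307. With the presence of RT1-N2 counts as a term, a fit chosen after seeing the data, the count was 0 in all 7 comparisons. DESeq2 called 1 in the vehicle group and 2 in the TTK21 group against SKF, and 1 each in the comparisons of the vehicle group with the Aβ group and with the TTK21 group, and it gave no adjusted p for 12, 12 and 14 members in the first 3 comparisons with SKF. Its shares of all genes beside these calls are not given here. A fit of only the 4 libraries compared called 0 in the Aβ group against SKF, 1 in the vehicle group against the Aβ group and 2 in the TTK21 group against the vehicle group. The study's fold limit left 0 in the Aβ group against SKF. At an unadjusted p the counts were 13, 3, 10 and 4 against SKF, in the order above, then 14 in the vehicle group and 2 in the TTK21 group against the Aβ group, and 15 in the TTK21 group against the vehicle group. With each library left out in turn, the count was 0 to 3 in the Aβ group and 0 to 3 in the TTK21 group against SKF, 0 to 2 in the TTK21 group against the vehicle group, and 0 in the other 4 comparisons. A left-out library leaves a group of 1, which is assumed to vary like the others. The filter can pass a gene on the group where it is high. With at least 10 counts in every library instead, 22 members were tested, and 13 were higher in the vehicle group than in the Aβ group at an unadjusted p under 0.05. The share of all genes that were higher under that filter is not given here.

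With the replicate number as a block, edgeR called 1 member in the vehicle group against the Aβ group (Ifit2, adjusted p = 0.00883) and 3 in the TTK21 group against the vehicle group, while over all genes it called 1 and 14. The labels do not say what a number shares. The correlation of same-numbered deviations over all tested genes was -0.07 to 0.24 in 10 pairs of groups, over 0.1 in 4 of them, so the numbers were not taken to pair the libraries. Over the 25 tested members alone it was -0.27 to 0.76.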
